A study of Cucumis melo with 9 samples.

Results

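Transcript levels of ribosome biogenesis and nucleolar genes were measured in ripe fruit of the climacteric oriental melon 'HT'. The genes were those whose deposited description held, in any case, the word nucleolar, pre-rRNA, fibrillarin, H/ACA or U3 small, a phrase for rRNA processing, ribosome biogenesis or a ribosome production factor, or WD repeat-containing protein together with U3, and not helicase. In all, 75 of the 29980 genes in the table were found in this way. No description named fibrillarin or held WD repeat-containing protein together with U3. Recovered fruit (Group A) spent 7 d at 4°C followed by 1 d at about 22°C, chilled fruit (Group B) stayed at 4°C for 8 d, and unchilled fruit (Group C) were picked on day 8 and not stored. Each group had 3 libraries, and per the study's methods each replicate pooled 3 fruits. Recovered and chilled fruit thus shared a harvest, whereas both differed from unchilled fruit in storage and in harvest date together, and these cannot be told apart.

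Ribosomes are assembled largely in the nucleolus, where RNA polymerase I transcribes a long precursor of the ribosomal RNAs. Small nucleolar ribonucleoproteins (snoRNPs) modify this precursor: box C/D snoRNPs guide methylation of riboses, and H/ACA snoRNPs guide the conversion of uridine to pseudouridine. The U3 snoRNP and its partner proteins form the small-subunit processome, which releases the precursor of the 40S subunit, while other proteins, several of them GTPases, build the 60S subunit and accompany it out of the nucleus.

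Of the 75 genes, 61 passed the filter of a mean FPKM above 1 over the 9 libraries and were tested among 15022 genes. Of the other 14, 7 had no count in any library, and none of the remaining 7 had more than 50 counts over all libraries. The libraries held 15508367 to 19011486 counts. The genes took 0.296 to 0.301% of the counts of recovered libraries, 0.314 to 0.355% of chilled and 0.305 to 0.338% of unchilled libraries. All levels are TMM-scaled FPKM, for which each deposited FPKM was divided by its library's TMM factor (recovered 1.12 to 1.13, chilled 0.764 to 0.809, unchilled 1.11 to 1.13). With library totals in place of TMM, the median over all tested genes (log2 fold change) was -0.56 rather than -0.06 for chilled against unchilled fruit and 0.49 rather than -0.02 for recovered against chilled fruit. A gene was called if its log2 fold change exceeded 1 in size and its adjusted p (edgeR's quasi-likelihood test, Benjamini-Hochberg over all tested genes) was under 0.05, and "rose" or "fell" is used below only for such genes.

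Marker lists from the descriptions also differed between the groups, and their part in the results was not tested. Ripening fruit genes (ACC oxidases, polygalacturonases, expansins and alcohol acyltransferases) summed to 2538 to 4530 TMM-scaled FPKM in recovered libraries, 1821 to 2163 in chilled and 3523 to 3858 in unchilled libraries. Of their 37 tested members, 9 rose and 19 fell after chilling, and 63 of the 148 listed genes had no count. Seed storage and oil body proteins summed to 42.5 to 52.2 in recovered, 141.7 to 174.8 in chilled and 88.8 to 104.9 in unchilled libraries, with 3 of 7 tested genes higher and 2 lower after chilling, and 26 of 47 listed genes without a count. Phloem proteins summed to 79.7 to 109.1, 234 to 316 and 299 to 551 in recovered, chilled and unchilled fruit, and of 9 tested genes 4 rose and 4 fell after chilling. In that list, 3 of 18 genes had no count. Genes for cutin and wax synthesis, markers of the fruit skin, summed to 530.4 to 1218 in recovered libraries, 431.2 to 864.5 in chilled and 1165 to 3824 in unchilled libraries, and 3 of their 32 genes were at 0 in each library. Of 20 tested, 1 rose and 8 fell after chilling (median -1.31). Proteins described as encoded in the chloroplast, listed with RNA quality in mind, summed to 925.2 to 1116, 876.5 to 891.4 and 791.9 to 858.3 in recovered, chilled and unchilled libraries. Of 47 tested genes, 10 were higher and 7 lower after chilling (median 0.44). With library totals, 3 were higher and 13 lower (median -0.05). All these marker sums use the TMM factors. Between recovered and unchilled fruit, 0 cutin and wax genes were higher and 9 lower (median -1.53), 0 phloem genes higher and 5 lower (-1.25), 0 seed genes higher and 3 lower (-0.69), 5 ripening genes higher and 8 lower (0.11), and 1 chloroplast gene higher and 1 lower (0.10).

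After 8 d at 4°C, 13 of the 61 tested genes were higher than in unchilled fruit and 4 were lower. These are 21.3% and 6.56% of the tested members, whereas 22.1% of all tested genes were called higher and 26.2% lower. In either direction, 27.9% of the members and 48.3% of all tested genes were called. The day at room temperature left 4 members higher and 16 lower in recovered than in chilled fruit, which are 6.56% and 26.2%, against 25.1% and 25.3% of all tested genes (32.8% and 50.4% in either direction). Against unchilled fruit, recovered fruit had 0 members higher and 3 lower (4.92%), and 3.66% of all tested genes were higher and 9.15% lower (12.8% in either direction). At an adjusted p below 0.05 and any fold, 45 members differed between recovered and chilled fruit (77.1% of all tested genes), 44 between chilled and unchilled fruit (75.4%) and 27 between recovered and unchilled fruit (36.6%). Of the last 27, 7 members lay above and 20 below unchilled fruit, against 2619 and 2875 of the 15022 tested genes. At an unadjusted p below 0.05 in edgeR, 7 members lay above and 21 below. No share of all genes was computed at that cutoff. DESeq2 and limma also called 0 members higher than in unchilled fruit. The chilled libraries enter both of the first comparisons, which are therefore not independent of each other.

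The median log2 fold change of the 61 genes was 0.08 for chilled against unchilled fruit, -0.31 for recovered against chilled fruit and -0.14 for recovered against unchilled fruit, and over all tested genes it was -0.06, -0.02 and 0.01. With library totals, the first of the members' medians became -0.42 and the next 0.19, so the sign of these medians depends on the scaling. Over all tested genes the same medians became -0.56 and 0.49. Under both scalings the members' median lay above that of all tested genes after chilling and below it after recovery. With library totals, chilling left 10 members higher and 13 lower, against 14.9% and 37.9% of all tested genes. Recovery left 12 members higher and 14 lower on that scale, against 36.4% and 17.2% of all tested genes. Of the genes called with TMM, 10 of the 13 that rose and all 4 that fell after chilling were also called with library totals, as were all 4 that rose and 14 of the 16 that fell after recovery. All 3 libraries of chilled fruit lay above all 3 of unchilled fruit for 24 genes and below them for 23, while the libraries of these groups did not overlap for 78.3% of all tested genes. Recovered and chilled libraries were apart for 15 genes that were higher and 31 that were lower after recovery (79.9% of all tested genes in either direction), and recovered and unchilled libraries for 11 that were higher and 24 that were lower (52.9%).

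**Figure D1:**
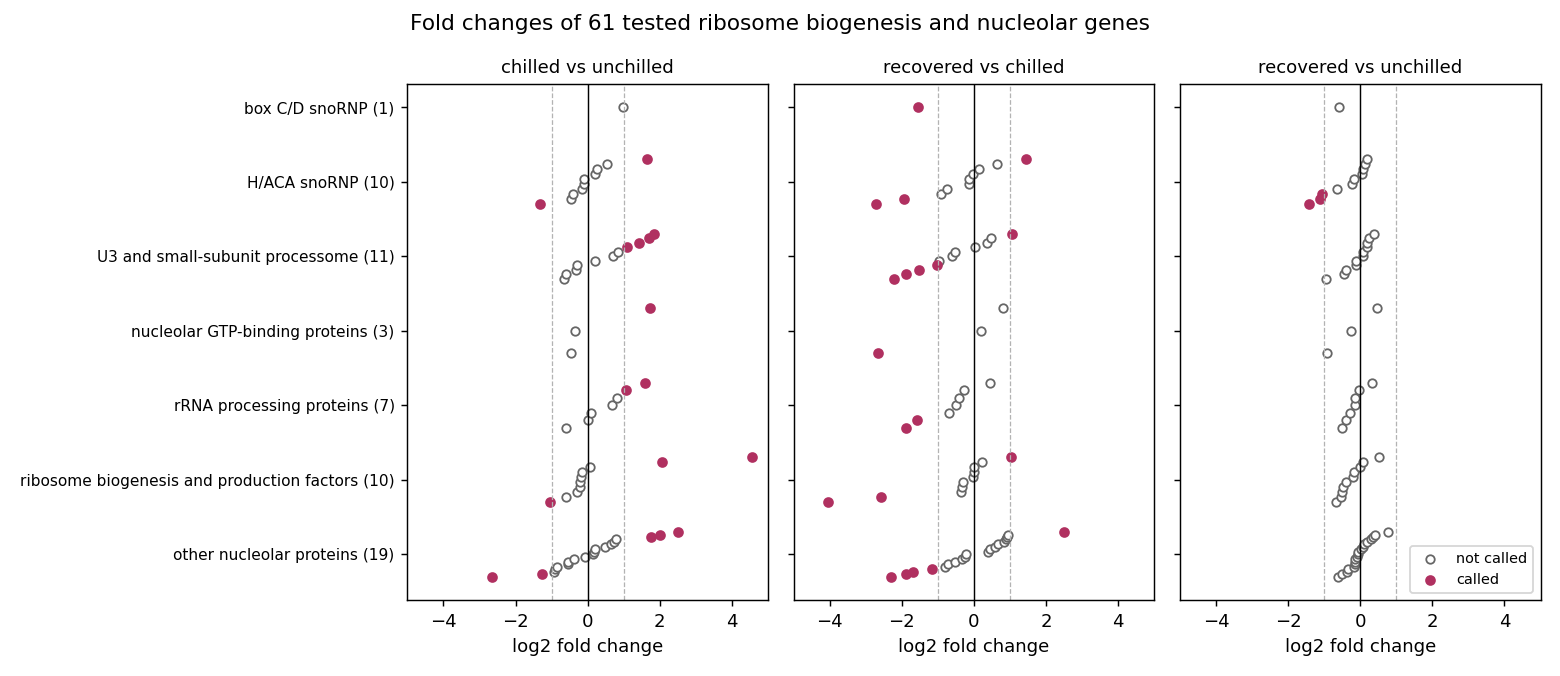
Log2 fold changes (horizontal axis) of the 61 tested ribosome biogenesis and nucleolar genes, grouped by role (vertical axis, number of tested genes in brackets), for chilled against unchilled, recovered against chilled and recovered against unchilled fruit. Each point is 1 gene, filled where called, and dashed lines mark log2 fold changes of -1 and 1; 13 genes lie called on the right in the first panel and 16 called on the left in the middle panel, while 3 are called in the last.

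The plot of fold changes by role shows that the calls were spread over all 7 roles. Only 1 member was described as a box C/D protein. MELO3C004350.2 (chromosome 5, 26765359 to 26768956; the table names no genome build) is described as Nop56, although its KEGG group, K14565, is that of NOP58; both are core proteins of box C/D snoRNPs. Its level was 39.8, 36.9 and 39.5 in recovered fruit, 111, 111 and 121 in chilled fruit and 49.6, 61.3 and 64.0 in unchilled fruit. The 3 groups did not overlap, with chilled fruit highest and recovered fruit lowest. It fell after recovery by 1.57 on the log2 scale (SE 0.102, adjusted p = 6.83e-07), whereas the log2 fold change after chilling was 0.98 (SE 0.10, adjusted p = 1.54e-05), just under the threshold. It passed in 4 of the 9 fits that left out a library (chilled replicate 1 or 2, or unchilled replicate 2 or 3), with values of 1.01 to 1.04.

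A gene described only as a nucleolar family protein, MELO3C026228.2, carries the KEGG group of NOP56 (K14564). It had 55.1, 58.8 and 55.5 TMM-scaled FPKM in recovered fruit, 121, 126 and 132 in chilled fruit and 70.3, 75.9 and 72.5 in unchilled fruit. Its groups kept the same order as those of MELO3C004350.2. It fell after recovery (log2 fold change -1.16, SE 0.0688, adjusted p = 3.9e-07) with TMM, but was not called with library totals (-0.66) or limma (-0.65). Chilled against unchilled fruit gave 0.79 (SE 0.0683).

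The genes for H/ACA proteins did not move together. Of 11 members 10 were tested, of which 1 rose and 1 fell after chilling, 1 rose and 2 fell after recovery, and 3 were lower in recovered than in unchilled fruit. Subunit 4, which in eukaryotes is dyskerin (CBF5 in yeast), the enzyme that makes pseudouridine, is encoded by MELO3C002022.2 on chromosome 12 (26850717 to 26853221). It had 12.8, 13.3 and 12.5 TMM-scaled FPKM in recovered fruit, 81.4, 82.6 and 87.5 in chilled fruit and 23.5, 27.8 and 28.6 in unchilled fruit. Chilled fruit stood highest and recovered fruit lowest, without overlap. It rose after chilling (log2 fold change 1.65, SE 0.0882, adjusted p = 2.32e-07), fell after recovery (-2.71, SE 0.0919, adjusted p = 2.6e-08) and was lower in recovered than in unchilled fruit (-1.05, SE 0.0881, adjusted p = 9.54e-05). The last call was lost without unchilled replicate 3 (-0.997) and with limma on log2 FPKM (-0.990).

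The partners of dyskerin in the core of the particle had other patterns. Subunit 2, NHP2, is encoded by MELO3C002060.2 on the same chromosome (26610037 to 26611544), with 18.9, 16.8 and 19.6 in recovered fruit, 70.0, 70.5 and 72.6 in chilled fruit and 46.4, 53.7 and 47.3 in unchilled fruit. It fell after recovery (-1.94, SE 0.101, adjusted p = 1.88e-07) and was lower in recovered than in unchilled fruit (-1.41, SE 0.0996, adjusted p = 5.61e-05), with 0.53 (SE 0.0966) for chilled against unchilled fruit. The NOP10 homolog described as subunit 3, MELO3C012871.2, was more abundant, with 90.1, 81.3 and 83.3 in recovered fruit, 64.2, 77.3 and 88.0 in chilled fruit and 77.3, 83.4 and 84.9 in unchilled fruit. All 3 groups overlapped, and its log2 fold changes were -0.10, 0.15 and 0.05 for chilled against unchilled, recovered against chilled and recovered against unchilled fruit. MELO3C008801.2, in the KEGG group of GAR1, averaged 10.8 ± 0.709 in recovered fruit, 11.8 ± 2.25 in chilled fruit and 12.6 ± 1.35 in unchilled fruit (SD, n = 3 each), with groups that overlapped. It overlaps a gene on the other strand, and the sources used here do not say whether the counting used strand.

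NAF1, which in yeast and mammals is an assembly factor of H/ACA particles and is later replaced by GAR1, had 2 genes. MELO3C021880.2 had 17.1, 13.8 and 16.7 TMM-scaled FPKM in recovered fruit, 5.68, 5.81 and 6.13 in chilled fruit and 13.6, 14.7 and 15.4 in unchilled fruit. It fell after chilling (-1.31, SE 0.109, adjusted p = 3.79e-06) and rose after recovery (1.43, SE 0.110, adjusted p = 1.95e-06), which is the opposite direction to subunit 4. The other gene, MELO3C003861.2, averaged 10.6 ± 0.260, 10.8 ± 2.02 and 11.9 ± 0.656 in recovered, chilled and unchilled fruit, with log2 fold changes of -0.14 after chilling and -0.03 after recovery.

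A pair of genes described as Nhp2, MELO3C004514.2 and MELO3C010355.2, carry the KEGG group of SNU13 (K12845), a related protein of box C/D snoRNPs and of the spliceosome. MELO3C010355.2 had 10.2, 9.57 and 6.99 in recovered fruit, 15.4, 14.8 and 14.2 in chilled fruit and 17.4, 20.5 and 20.3 in unchilled fruit. Recovered fruit were lowest, and the gene fell relative to unchilled fruit (-1.12, SE 0.158, adjusted p = 0.000865), a call lost without recovered replicate 3 (-0.97). MELO3C004514.2 averaged 23.6 ± 0.290, 44.8 ± 4.19 and 37.2 ± 0.522 in the same order of groups, with -0.92 after recovery and -0.66 against unchilled fruit. MELO3C022289.2, described as subunit 1-like but placed by KEGG in the SERBP1 group (K13199), was the most abundant gene of the set, at 105 ± 2.44, 67.1 ± 9.31 and 92.0 ± 6.59, with log2 fold changes of -0.46 after chilling and 0.65 after recovery. For MELO3C022289.2, the value after recovery was called with library totals (1.15) and limma (1.15). MELO3C033129.2, a further subunit 3-like gene, had 11 to 18 counts per library and levels of 1.02 to 1.74 with no order between groups.

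In the U3 and small-subunit processome group, 4 of 11 tested genes rose after chilling, and after recovery 1 rose and 4 fell. Its 14 genes summed to 167.9 to 170.5 TMM-scaled FPKM in recovered libraries, 302.7 to 343.1 in chilled and 172.4 to 175.5 in unchilled libraries. A share of all counts uses no TMM factor and is not divided by gene length, so it also gives long genes more weight. As such shares, the sums were 0.0363 to 0.0371%, 0.0517 to 0.0570% and 0.0372 to 0.0403% in the same order, so chilled fruit were highest on both measures. That was not so for every role. The H/ACA genes summed to 286.9 to 304.1 TMM-scaled FPKM in recovered, 354.4 to 412.9 in chilled and 326.6 to 363.8 in unchilled libraries, but took 0.0570 to 0.0594%, 0.0410 to 0.0512% and 0.0572 to 0.0654% of the counts, with chilled fruit lowest. Biogenesis and production factors also took less in chilled libraries (0.0351 to 0.0373%) than in unchilled ones (0.0387 to 0.0432%), although their TMM-scaled sums were higher (289.8 to 329.8 against 221.6 to 245.4). UTP14, a processome protein that in yeast activates an RNA helicase, had the largest changes. MELO3C015997.2 (chromosome 1, 32359441 to 32367580) had 21.3, 20.9 and 23.3 in recovered fruit, 108, 97.1 and 102 in chilled fruit and 26.2, 29.2 and 30.8 in unchilled fruit. This gene rose after chilling (1.83, SE 0.0867, adjusted p = 1.25e-07) and fell after recovery (-2.23, SE 0.0879, adjusted p = 4.6e-08), and recovered and unchilled fruit differed by -0.40. The other UTP14 gene, MELO3C016549.2, averaged 28.0 ± 2.74, 54.2 ± 5.71 and 30.2 ± 4.29 in recovered, chilled and unchilled fruit, with values of 0.84 after chilling and -0.96 after recovery. It passed the threshold after recovery without recovered replicate 2 (-1.03) or chilled replicate 2 (-1.05).

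MPP10, IMP3 and IMP4 form a complex that binds U3 in yeast and mammals. MPP10, MELO3C026213.2, had 8.07, 8.32 and 7.97 TMM-scaled FPKM in recovered fruit, 28.1, 29.5 and 32.1 in chilled fruit and 11.5, 10.5 and 11.3 in unchilled fruit. Its transcript rose after chilling (1.43, SE 0.0874, adjusted p = 5.23e-07), though it was not called with library totals (0.93) or limma (0.88), and it fell after recovery (-1.88, SE 0.0888). The 2 tested IMP3 models lie on unplaced sequence and are short. MELO3C000032.2 (156 bases, 12 to 54 counts per library) rose after chilling (1.71, SE 0.357, adjusted p = 0.00172) and fell after recovery (-1.52, SE 0.350, adjusted p = 0.00296). With limma on log2(FPKM + 1) the value after recovery was -0.88 and not called.

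MELO3C001556.2 (286 bases, 34 to 104 counts per library), the other IMP3 model, was called with 1.10 after chilling and -1.02 after recovery. Its chilled replicates were not alike, at 9.67, 27.2 and 23.9, against 11.3, 8.98 and 9.65 in recovered fruit and 9.13, 11.4 and 7.94 in unchilled fruit. Chilled replicate 1 thus lay within both other groups. The call after chilling was lost without chilled replicate 2 (0.84), chilled replicate 3 (0.97) or unchilled replicate 3 (0.98), and the call after recovery without chilled replicate 2 (-0.77), chilled replicate 3 (-0.89), recovered replicate 2 (-0.95) or recovered replicate 3 (-0.99). Neither call held with library totals (0.61 and -0.53), limma (0.45 and -0.37) or no filter on low values (0.95 and -0.89). IMP4, MELO3C005127.2, averaged 8.68 ± 1.33, 6.77 ± 2.25 and 8.28 ± 1.27 in recovered, chilled and unchilled fruit, with groups that overlapped and a log2 fold change of -0.29 after chilling.

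UTP25, MELO3C017440.2, was the processome gene that rose after recovery. It had 21.2, 20.1 and 24.9 in recovered fruit, 11.1, 10.8 and 10.2 in chilled fruit and 16.7, 16.9 and 17.2 in unchilled fruit. Its chilled libraries were lowest and its recovered libraries highest, with a log2 fold change of 1.05 after recovery (SE 0.0996, adjusted p = 8.33e-06) that fell to 0.96 without recovered replicate 3. After chilling, UTP25 was called lower with library totals (-1.17) and limma (-1.08) but not with TMM (-0.67). The other 5 tested genes, for UTP6, UTP11, UTP18, UTP23 and IMP4, were called in no comparison with TMM. UTP18, MELO3C020849.2, came closest, at -0.94 for recovered against unchilled fruit, and passed without unchilled replicate 1 (-1.06).

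Among the GTPases, NOG1 acts on the precursor of the 60S subunit in yeast. Its gene MELO3C010735.2 (chromosome 3, 31202008 to 31205393) had 23.8, 24.2 and 23.7 TMM-scaled FPKM in recovered fruit, 136, 161 and 159 in chilled fruit and 41.5, 42.4 and 52.4 in unchilled fruit. Chilled fruit were far above both other groups, and recovered fruit lay below unchilled fruit. It rose after chilling (1.74, SE 0.108, adjusted p = 5.82e-07) and fell after recovery (-2.67, SE 0.112, adjusted p = 6.04e-08). For recovered against unchilled fruit the value was -0.93, which passed without unchilled replicate 1 (-1.01). The other NOG1 gene, MELO3C006259.2, had its lowest mean in chilled fruit, with 29.4 ± 2.09 in recovered fruit, 16.8 ± 2.11 in chilled fruit and 21.5 ± 1.83 in unchilled fruit and log2 fold changes of -0.35 after chilling and 0.80 after recovery. With library totals it was called higher after recovery (1.31). Nuclear/nucleolar GTPase 2, MELO3C033647.2, also a 60S factor in yeast, averaged 70.3 ± 5.40, 61.8 ± 2.87 and 84.5 ± 4.47, with -0.45 after chilling and 0.19 after recovery. Both untested genes of this role had no count.

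Of 7 proteins described by rRNA processing, 2 rose after chilling and 2 fell after recovery. TSR1, which in yeast joins the late precursor of the 40S subunit, is encoded by MELO3C022402.2 and had 13.5, 13.8 and 13.2 in recovered fruit, 45.9, 53.0 and 51.5 in chilled fruit and 14.3, 16.6 and 18.6 in unchilled fruit. With chilling it rose (1.60, SE 0.106, adjusted p = 8.62e-07) and fell after recovery (-1.89, SE 0.107, adjusted p = 3.02e-07). EBP2, a 60S factor in yeast, is encoded by MELO3C005417.2, with 21.4, 17.7 and 21.5, then 54.8, 59.6 and 65.2, then 26.2, 31.2 and 28.9 in recovered, chilled and unchilled fruit. Its fold change was -1.57 after recovery (SE 0.115, adjusted p = 1.54e-06) and 1.06 after chilling (SE 0.114, adjusted p = 2.12e-05). The call after chilling was lost with library totals (0.56), with limma (0.54), with no filter on low values (0.91), without chilled replicate 3 (0.9992, just under the threshold) and without unchilled replicate 1 (0.97). EFG1, ESF2, ESF1, FCF2 and FCF1 were not called with TMM, with log2 fold changes of -0.59 to 0.82 after chilling and -0.70 to 0.44 after recovery. Among them, MELO3C006009.2 (-0.59 after chilling) was called lower with library totals (-1.09) and limma (-1.02).

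Among 10 tested biogenesis and production factors, chilling left 2 higher and 1 lower, and recovery 1 higher and 2 lower. The ribosome biogenesis regulatory protein, whose KEGG group is that of yeast RRS1, a protein that brings 5S RNA into the 60S precursor, is encoded by MELO3C015663.2 (chromosome 2, 4275627 to 4279745). It had 26.5, 27.7 and 27.9 TMM-scaled FPKM in recovered fruit, 198, 139 and 154 in chilled fruit and 36.1, 38.9 and 41.1 in unchilled fruit. Even the lowest chilled library stood far above the highest of the other 6. After chilling it rose (2.08, SE 0.128, adjusted p = 5.45e-07) and fell after recovery (-2.58, SE 0.130, adjusted p = 1.63e-07). RPF2, the partner of RRS1 in yeast, behaved otherwise: MELO3C018272.2 averaged 13.5 ± 0.286, 17.3 ± 2.01 and 21.4 ± 1.66 and MELO3C028534.2 7.15 ± 0.780, 9.05 ± 0.879 and 10.4 ± 0.714 in recovered, chilled and unchilled fruit, and neither was called.

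BRX1, a further 60S factor in yeast, had 1 expressed gene, MELO3C015338.2. It had 68.6, 84.4 and 74.4 in recovered fruit, 31.8, 42.4 and 36.7 in chilled fruit and 66.6, 87.3 and 76.7 in unchilled fruit. Chilled fruit were lowest, and the other groups overlapped (-0.02 for recovered against unchilled fruit). It fell after chilling (-1.06, SE 0.137, adjusted p = 7.56e-05) and rose after recovery (1.04, SE 0.137, adjusted p = 8.12e-05), but each fold change was near the threshold. Without chilled replicate 1 the values were -0.95 and 0.93, without unchilled replicate 2 the first was -0.96, and without recovered replicate 2 the other was 0.96. The 3 other BRX1 genes were not tested.

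BOP1 (ERB1 in yeast) and WDR12 belong to a complex that processes the RNAs of the large subunit. A BOP1 gene, MELO3C022134.2, averaged 18.9 ± 2.93, 19.2 ± 2.09 and 21.4 ± 0.863 in recovered, chilled and unchilled fruit, and its groups overlapped. Another member described as BOP1 or ERB1, MELO3C023764.2, was also not called. Its log2 fold changes were -0.20 after chilling, -0.01 after recovery and -0.21 for recovered against unchilled fruit. WDR12, MELO3C008857.2, averaged 18.9 ± 0.712, 23.4 ± 0.894 and 26.6 ± 1.26, with -0.49 for recovered against unchilled fruit. A short model described as BOP1, MELO3C030970.2 (563 bases, chromosome 4), had the highest fold change of the set, but on few counts: 3, 5 and 3 in recovered fruit, 38, 43 and 49 in chilled fruit and 2, 4 and 1 in unchilled fruit. Its fitted log2 fold changes were 4.57 after chilling (SE 0.426, adjusted p = 7.92e-06) and -4.05 after recovery (SE 0.398, adjusted p = 1.05e-05). The levels were 0.287, 0.475 and 0.249 in recovered fruit, 5.49, 6.07 and 5.72 in chilled fruit and 0.206, 0.378 and 0.0984 in unchilled fruit. Whether its reads belong to MELO3C022134.2 or MELO3C023764.2 cannot be told from these counts.

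**Figure D2:**
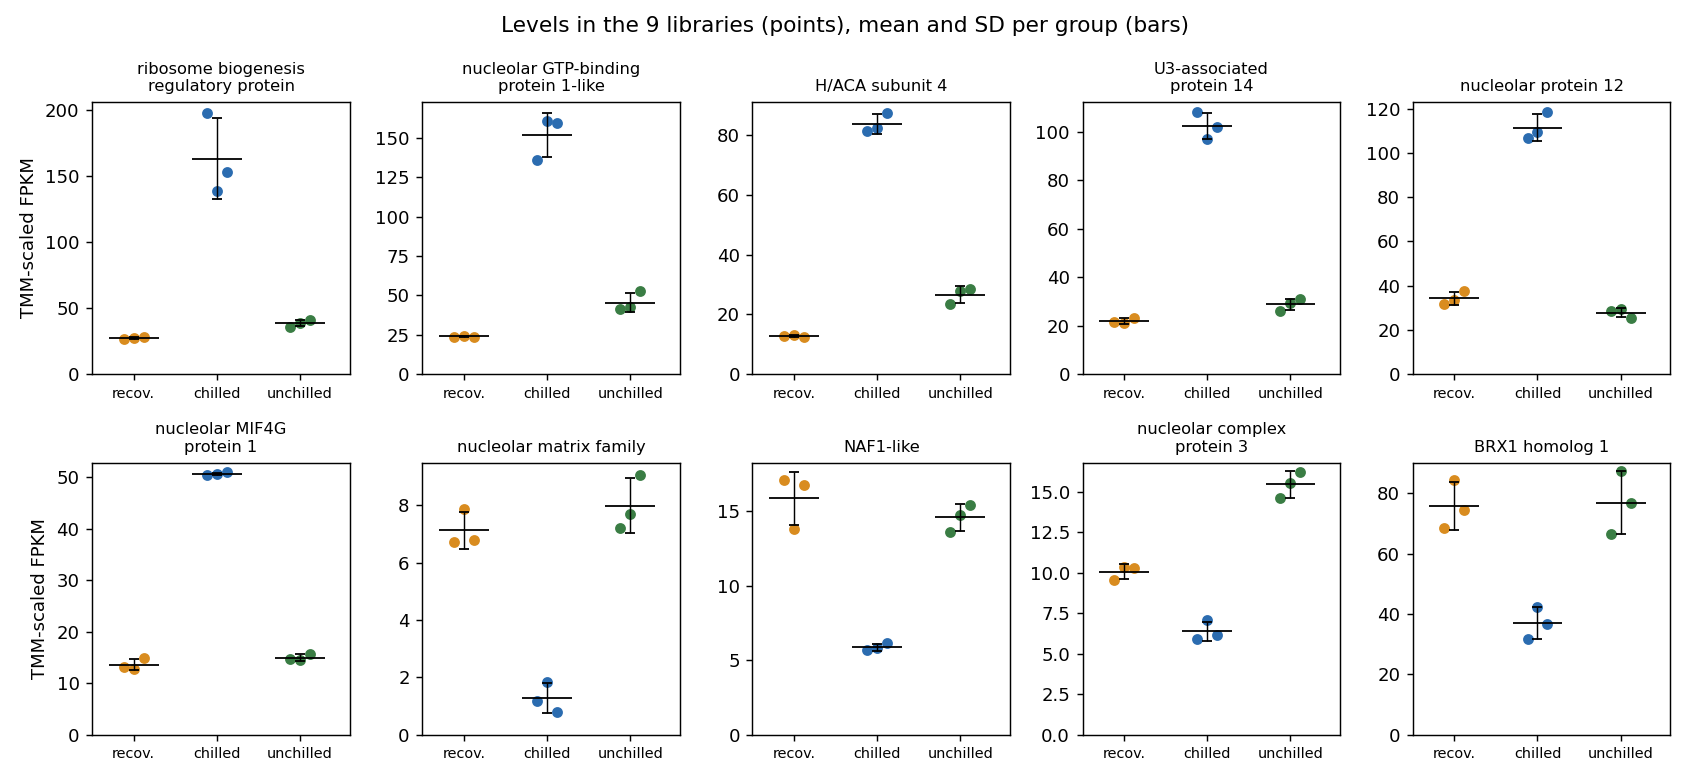
TMM-scaled FPKM (vertical axis, its own scale in each panel and starting at 0) of 10 genes in the recovered, chilled and unchilled libraries; points are libraries, and bars show mean and SD per group (n = 3). In the first 6 panels the chilled libraries are all above the others (the ribosome biogenesis regulatory protein at 139 to 198), and in the last 4 they are all below them (BRX1 homolog 1 at 31.8 to 42.4).

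The plot of levels by library sets a selection of the genes that rose after chilling beside the 4 that fell. It leaves out the highest fold changes, those of MELO3C030970.2 (4.57) and MELO3C009076.2 (2.50), which had low levels. Of 19 tested nucleolar proteins of other kinds, 3 rose and 2 fell with chilling, while recovery raised 1 and lowered 4. Nucleolar protein 12, which in yeast takes part in processing the 60S precursor, is encoded by MELO3C013841.2, with 31.9, 33.6 and 37.7 TMM-scaled FPKM in recovered fruit, 107, 109 and 118 in chilled fruit and 28.5, 29.3 and 25.4 in unchilled fruit. It rose after chilling (2.01, SE 0.0924, adjusted p = 1.08e-07) and fell after recovery (-1.70, SE 0.0913, adjusted p = 2.28e-07). Recovered fruit lay slightly above unchilled fruit (0.31). The MIF4G domain-containing protein 1, whose yeast relative acts on the small subunit, is encoded by MELO3C008815.2, with 13.3, 12.8 and 14.9 in recovered fruit, 50.4, 50.6 and 50.9 in chilled fruit and 14.8, 14.4 and 15.7 in unchilled fruit. Its transcript rose after chilling (1.76, SE 0.0817, adjusted p = 1.14e-07) and fell after recovery (-1.89, SE 0.0820, adjusted p = 7.12e-08), and recovered and unchilled fruit overlapped.

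A pair of genes was described as gar2-like, after a fission yeast relative of nucleolin. MELO3C009076.2 had 0.923, 0.847 and 0.909 in recovered fruit, 3.00, 4.48 and 5.80 in chilled fruit and 0.517, 0.965 and 0.858 in unchilled fruit. The gene rose after chilling (2.50, SE 0.298, adjusted p = 4.21e-05) and fell after recovery (-2.31, SE 0.293, adjusted p = 6.15e-05). Its relative MELO3C014866.2 was highest in recovered fruit instead, with 10.1 ± 0.575, 5.65 ± 1.03 and 5.96 ± 0.517 in recovered, chilled and unchilled fruit. It had a value of 0.84 after recovery and the highest value of the set against unchilled fruit (0.76, adjusted p = 0.00286). Neither was called with TMM, but the value after recovery was called with library totals (1.35) and limma (1.19).

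The NOC proteins escort large- and small-subunit precursors in yeast. NOC3, MELO3C012616.2, had 9.52, 10.4 and 10.3 in recovered fruit, 5.93, 7.06 and 6.16 in chilled fruit and 14.6, 15.5 and 16.2 in unchilled fruit. It fell after chilling (-1.28, SE 0.0998, adjusted p = 2.47e-06). After recovery it lay between the other groups, without overlap, at 0.66 against chilled fruit and -0.62 against unchilled fruit. The value against chilled fruit was called with library totals (1.16) and limma (1.02). The NOC2 genes went different ways after chilling: MELO3C019491.2 gave 0.65, MELO3C025507.2 gave -0.84 and MELO3C008200.2 gave -0.54. After recovery they gave -0.80, 0.94 and 0.90 in the same order. None of these values was called in the main fit with TMM. After chilling with library totals, MELO3C025507.2 (-1.33) and MELO3C008200.2 (-1.04) were called lower, and MELO3C019491.2 gave 0.16. Limma also called MELO3C025507.2 lower (-1.18). After recovery, MELO3C025507.2 and MELO3C008200.2 were called higher with library totals (1.45 and 1.40), limma (1.28 and 1.31) and no filter on low values (1.08 and 1.03). NOC4, MELO3C013248.2, gave -0.53 with TMM and was called lower with library totals (-1.03).

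One of the nucleolar matrix family genes, MELO3C026193.2, had 6.71, 7.87 and 6.79 in recovered fruit, 1.20, 1.83 and 0.798 in chilled fruit and 7.20, 7.69 and 9.07 in unchilled fruit. It fell after chilling (-2.66, SE 0.263, adjusted p = 1.21e-05) and rose after recovery (2.49, SE 0.263, adjusted p = 1.71e-05), the lowest and the highest values of the set in these comparisons. The other, MELO3C023050.2, averaged 18.5 ± 0.781, 30.2 ± 3.82 and 26.0 ± 1.84 in recovered, chilled and unchilled fruit, with 0.21 after chilling and -0.71 after recovery. The URB1-like MELO3C021122.2, a 60S factor in yeast, averaged 4.64 ± 0.178, 2.44 ± 0.211 and 4.56 ± 0.245, with -0.90 and 0.93. Both values were called with library totals (-1.40 and 1.43), limma (-1.06 and 1.09) and, still with TMM, no filter on low values (-1.05 and 1.06). The URB1-like gene overlaps another member on its own strand, MELO3C029177.2, which was not tested. Nucleolar proteins 6, 8, 10 and 14 and the TLD-domain genes were also called in no comparison with TMM, with values of -0.93 to 0.74 after chilling. The lowest of these, MELO3C003770.2, passed after chilling with library totals (-1.42), with no filter on low values (-1.07), without chilled replicate 2 (-1.25) and without unchilled replicate 2 (-1.004).

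Since several proteins had more than 1 gene and H/ACA subunits act together, the ratio of 2 genes within a library was also taken, on the log2 scale with 0.1 added to each level. Such a ratio is the same under any scaling of the libraries, apart from the 0.1. Between copies, the gene with the higher chilled mean was put first, which favours high ratios in chilled fruit. The 20 pairs were chosen after the levels were seen, and with 3 against 3 libraries the exact 2-sided permutation test cannot give a p below 0.1, so the ratios are a description. The libraries of chilled and unchilled fruit were apart in 16 of the 20 ratios. Those of recovered and chilled fruit were apart in 13 and those of recovered and unchilled fruit in 11. In the same order, the libraries were apart in the levels of 78.3%, 79.9% and 52.9% of all tested genes. No such share was computed for ratios of other gene pairs, and several of the 20 ratios share a gene. For NOG1, MELO3C010735.2 over MELO3C006259.2 averaged -0.29 after recovery, 3.17 in chilled fruit and 1.07 in unchilled fruit, so that the more abundant gene of the pair after recovery was the less abundant in the other groups. MELO3C019491.2 over MELO3C025507.2, for NOC2, averaged -0.61, 1.12 and -0.35, and likewise turned in chilled fruit. For NAF1, MELO3C003861.2 over MELO3C021880.2 averaged -0.57, 0.85 and -0.28. Other ratios were lowest in chilled fruit, without overlap with recovered or unchilled fruit. The gar2-like ratio, MELO3C014866.2 over MELO3C009076.2, averaged 3.36, 0.38 and 2.82. For BOP1, MELO3C022134.2 over the short model MELO3C030970.2 averaged 5.47, 1.71 and 6.13, and MELO3C023764.2 over MELO3C030970.2 averaged 5.02, 1.25 and 5.70.

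The UTP14 genes, MELO3C015997.2 over MELO3C016549.2, averaged -0.35 in recovered fruit, 0.92 in chilled fruit and -0.07 in unchilled fruit. The RPF2 genes kept their ratio, at 0.92, 0.93 and 1.03 in the same order, with groups that overlapped. Within the H/ACA core, subunit 4 over subunit 3 (MELO3C002022.2 over MELO3C012871.2) averaged -2.71, 0.14 and -1.62, and subunit 4 over MELO3C008801.2 averaged 0.24, 2.83 and 1.07. Subunit 4 over subunit 2 (MELO3C002060.2) averaged -0.52, 0.24 and -0.88. The transcript of the catalytic subunit thus gained on those of its partners in chilled fruit, and no group overlapped another in these 3 ratios.

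**Figure D3:**
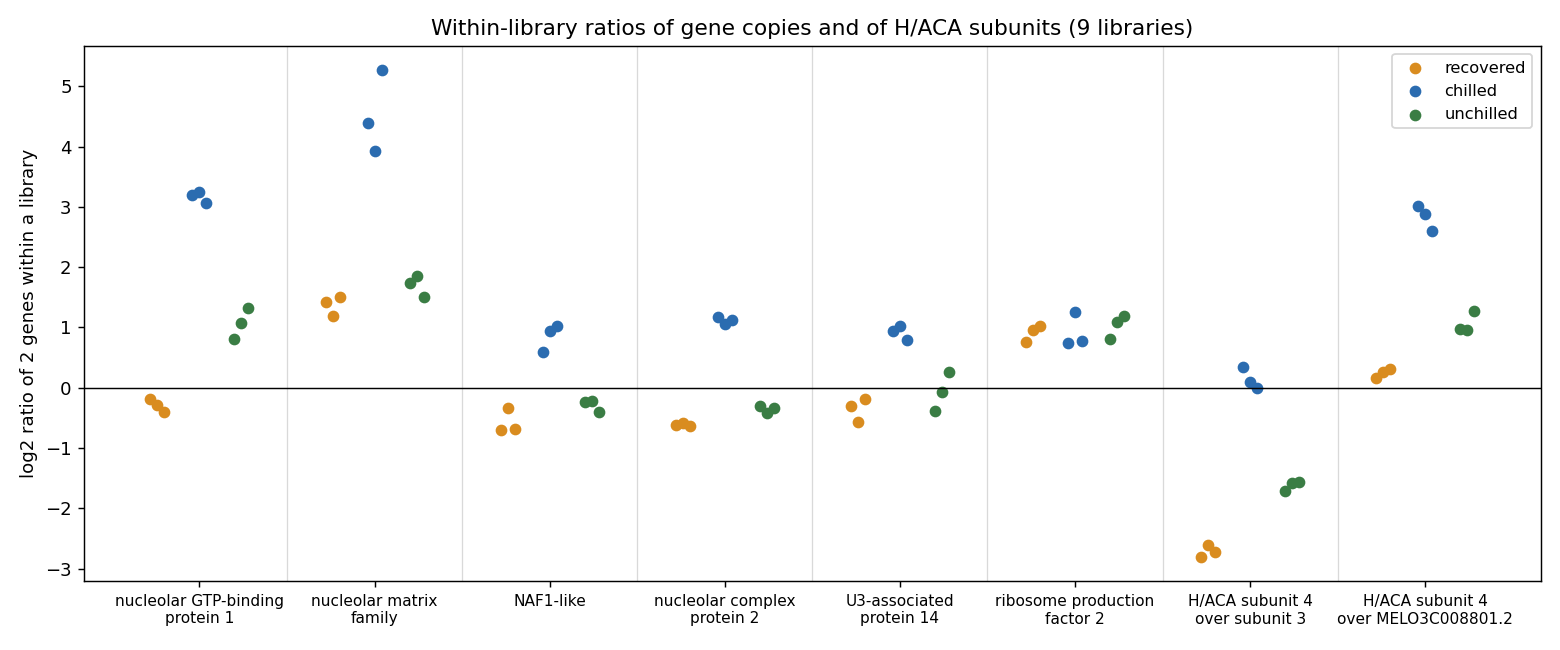
Log2 ratio of the levels of 2 genes within each library (vertical axis) for 6 gene pairs and 2 pairs of H/ACA subunits (horizontal axis); points are libraries, coloured by recovered, chilled and unchilled fruit (n = 3 each). These pairs are a selection from the 20 ratios. In this selection, chilled libraries lie above all others except in the pair for ribosome production factor 2, whose groups overlap.

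The plot of ratios shows each library of these pairs. Genes of the wider pathway that are not members were described by lists of words, of which the closest holds 44 tested ribosome biogenesis factors under other names. Of these 8 rose and 10 fell after chilling (18.2% and 22.7%, median -0.05), against 22.1% and 26.2% of all tested genes. After recovery 10 rose and 7 fell (22.7% and 15.9%, median -0.46), against 25.1% and 25.3%. NMD3, the adaptor that exports the 60S subunit, MELO3C007816.2, had 29.6, 30.6 and 28.1 TMM-scaled FPKM in recovered fruit, 304, 328 and 321 in chilled fruit and 34.5, 38.8 and 40.6 in unchilled fruit. It rose after chilling (3.07, SE 0.0883, adjusted p = 1.65e-08). PNO1, a 40S factor, MELO3C014081.2, had 3.51, 3.62 and 4.00 in recovered fruit, 44.6, 47.0 and 47.1 in chilled fruit and 9.97, 10.99 and 13.9 in unchilled fruit, and it fell after recovery (-3.64, SE 0.146, adjusted p = 4.83e-08) and relative to unchilled fruit (-1.65, SE 0.140, adjusted p = 0.000103).

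A nucleolin-like gene, MELO3C021807.2, was the highest of this list against unchilled fruit, with 57.4, 97.0 and 81.1 in recovered fruit, 144, 121 and 138 in chilled fruit and 28.3, 16.8 and 23.1 in unchilled fruit (1.79 for recovered against unchilled fruit, SE 0.227, adjusted p = 0.000669). Notchless, MELO3C023992.2, a 60S factor, averaged 4.73 ± 0.199 in recovered fruit, 1.66 ± 0.176 in chilled fruit and 6.69 ± 0.620 in unchilled fruit and fell after chilling (-2.01, SE 0.150). The large-subunit GTPase LSG1-2-like, MELO3C026106.2, averaged 6.97 ± 0.757, 1.88 ± 0.121 and 5.19 ± 0.843 and rose after recovery (1.89, SE 0.164).

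Subunits of RNA polymerases I and III, which make the ribosomal RNAs and other small RNAs, had 17 tested genes, of which chilled fruit had 3 higher and 6 lower than unchilled fruit, and recovered fruit had 6 higher and 2 lower than chilled fruit. The RPA49 gene of RNA polymerase I, MELO3C024372.2, had 11.7, 10.9 and 10.5 in recovered fruit, 71.8, 65.8 and 66.7 in chilled fruit and 17.2, 17.2 and 18.3 in unchilled fruit. After chilling it rose (1.95, SE 0.0792, adjusted p = 5.57e-08) and fell after recovery (-2.63, SE 0.0814, adjusted p = 2.22e-08). A gene for TAF1C, part of the initiation factor of RNA polymerase I, MELO3C021732.2, averaged 10.99 ± 0.350 in recovered fruit, 2.06 ± 0.0372 in chilled fruit and 9.62 ± 1.39 in unchilled fruit and fell after chilling (-2.22, SE 0.118). The gene that rose most after recovery, MELO3C034128.2, is described as a subunit of polymerases I, II and III. It had 11.03, 4.83 and 15.9 in recovered fruit, 1.07, 1.05 and 1.30 in chilled fruit and 2.43, 5.86 and 5.003 in unchilled fruit, with 3.19 after recovery (SE 0.534, adjusted p = 0.00040). Its recovered libraries were far apart, and replicate 2 lay within unchilled fruit.

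**Figure D4:**
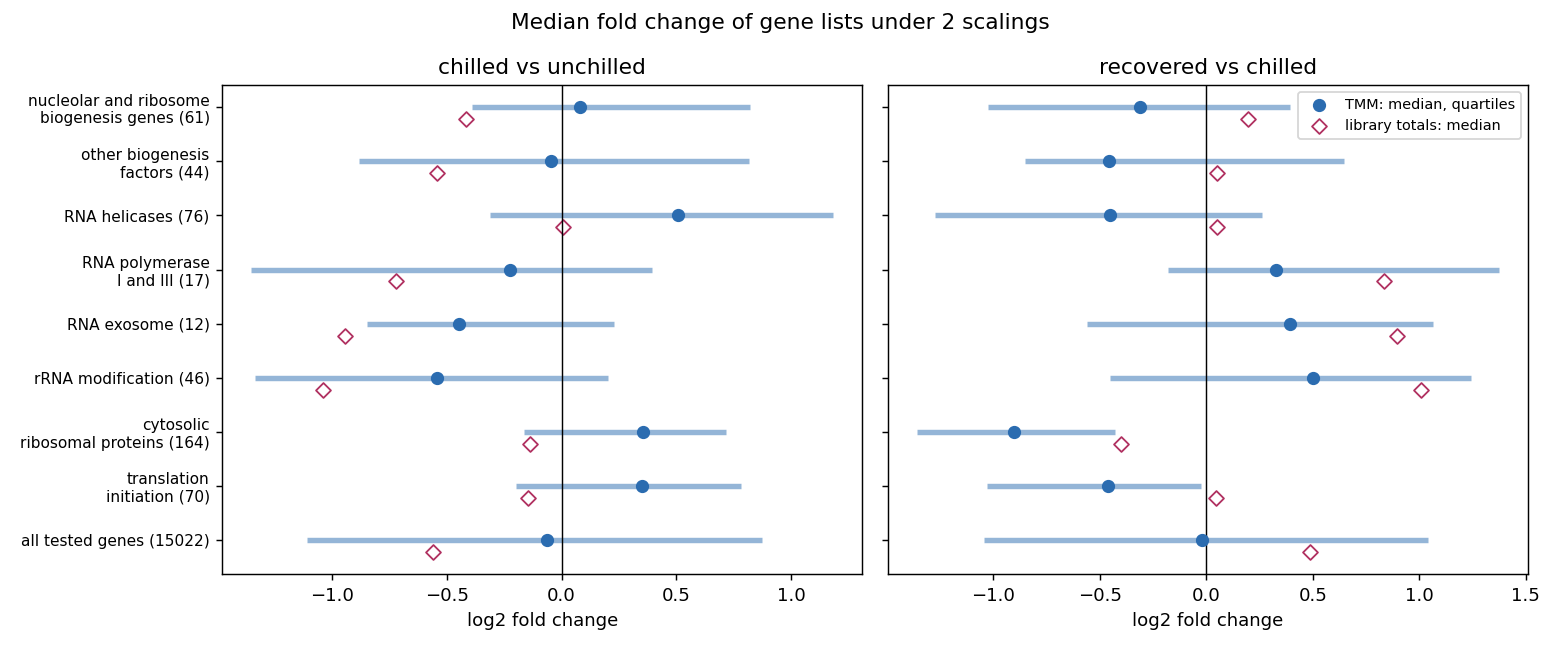
Median log2 fold change (horizontal axis) of 9 gene lists (vertical axis, number of tested genes in brackets) for chilled against unchilled and recovered against chilled fruit. Filled points and bars are medians and quartiles with TMM, and open diamonds are medians with library totals; the median of all tested genes is -0.06 and -0.56 in the first panel and -0.02 and 0.49 in the other.

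The plot of medians by list sets both scalings side by side, since each median moves with that of all genes. RNA helicases, which were left out of the members, had 23 of 76 tested genes higher and 9 lower after chilling. After recovery 10 were higher and 25 lower, with medians of 0.51 and -0.45 (0.01 and 0.05 with library totals). For rRNA modification enzymes, 4 of 46 rose and 17 fell after chilling, whereas recovery raised 18 and lowered 6, with medians of -0.54 and 0.50 (-1.04 and 1.01 with library totals). Cytosolic ribosomal proteins, the products that the assembly factors put together with rRNA, had 21 of 164 tested genes higher and 13 lower after chilling (median 0.36, or -0.14 with library totals) and 6 higher and 71 lower after recovery (median -0.90, or -0.40). In bulk samples, fewer cells of a type and less RNA per cell cannot be told apart. Only the spread between these libraries enters the p-values.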

How the data were processed

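RNA was sequenced from 9 libraries of pooled fruit. The authors deposited 1 table with read counts per gene and library and FPKM made from them. The deposited FPKM equal count over gene length and library total (largest difference 4.55e-11). The submitters' processing notes name cutadapt 1.15 and HISAT2 2.0.5, and the paper's methods name other releases of both and HTSeq for counting, so the versions used are unsettled. The table names no genome build, and whether counting used strand is not stated in the sources used here. Columns of values left unused numbered 0.

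The counts, with no normalization by the authors, were fitted in R 4.3.3 with edgeR 4.0.16 (TMM factors, robust glmQLFit, glmQLFTest, all 9 libraries in 1 model with group as the only term). The 15022 genes whose mean FPKM exceeded 1 were tested. Calls required a log2 fold change over 1 in size together with an adjusted p (Benjamini-Hochberg, all tested genes) under 0.05. The standard error was taken as the size of the log2 fold change over the square root of F, and SDs are of TMM-scaled FPKM. The common biological coefficient of variation was 0.191. The fit was tested on simulated data in which few genes changed, equally many in each direction. That simulation cannot speak to the choice of scaling, since it held no shift between groups like that of the TMM factors here. Depth was 15508367 to 19011486 counts per library, which limits precision for genes with few counts.

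The members, roles and lists (words in the descriptions) were chosen with earlier results of these data known, so no test was made of a list. Named members were, by rule, the 6 highest and 6 lowest called fold changes of each comparison without overlap and with a mean of at least 5 in the higher group, the 8 most abundant members, all tested members of the box C/D and H/ACA roles, and every member called in a direction with at most 8 calls; other members were named after their values were seen. For 2 pathway lists the highest and lowest called genes of each comparison with a mean of at least 5 in the higher group were named. Alternatives were DESeq2 1.42.0, its size factors, library totals, no filter, limma 3.58.1 on log2(FPKM + 1), no fold-change threshold, a replicate block and each library left out. No sequences are printed: the reference table in hand shares no identifiers with the deposited table.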

Additional observations from a re-analysis of the deposited data

How the results depend on the processing

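No called value of a tested member changed sign under any alternative. DESeq2 and its size factors in edgeR gave 4 genes higher and 16 lower after recovery and 14 higher and 4 lower after chilling. The replicate numbers did not pair the libraries (correlations of same-numbered deviations of -0.14 to 0.15), and a replicate block gave 4 higher and 15 lower after recovery and 13 higher and 4 lower after chilling; the call lost was that of MELO3C001556.2 (-0.95). For recovered against chilled fruit, members called higher numbered 12 with library totals, 7 with no filter on low values, 11 with limma on log2(FPKM + 1) and 15 with no fold-change threshold, and members called lower numbered 30 with no threshold. Among all genes in each fit, the numbers were 5472, 4793, 4801 and 5680 higher, and 5898 lower. For chilled against unchilled fruit, 24 members were higher with no threshold, and 13, 9 and 20 were lower with library totals, limma and no threshold. All tested genes gave 5442 higher, and 5687, 5046 and 5884 lower. For recovered against unchilled fruit, no threshold gave 7 members higher and 20 lower, and 2619 and 2875 of all tested genes. The median for recovered against chilled fruit was 0.19 with library totals, 0.19 with limma and -0.15 with no filter, and for chilled against unchilled fruit it was -0.42, -0.37 and -0.094. Over the tested members and all comparisons, 17 values gained a call with library totals and 5 lost one, and with limma 12 gained and 7 lost one. Limma was run on FPKM, which are scaled by library totals. The cause of these differences was not tested beyond the scaling. Leaving out each library in turn gave 3 to 4 genes higher and 15 to 16 lower after recovery (median -0.34 to -0.27), 11 to 14 higher and 3 to 5 lower after chilling (median 0.01 to 0.11), and 0 higher and 2 to 5 lower for recovered against unchilled fruit (median -0.20 to -0.10), where 5 were lower without unchilled replicate 1. Of the 61 tested genes, 13 overlap another gene model, 11 of them on the other strand, so their counts may hold reads of 2 genes if strand was not used. Sharing of reads between copies could not be checked. Depth limits members with few counts, such as the short IMP3 and BOP1 models and MELO3C033129.2.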

Other observations

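Of 164 tested genes for cytosolic ribosomal proteins, 1 was higher and 12 lower in recovered than in unchilled fruit, with a median log2 fold change of -0.64 under TMM and -0.63 with library totals, against 0.01 and 0.02 over all tested genes. All 3 recovered libraries lay below all 3 unchilled libraries for 143 of the 164 genes and above them for 7, while the libraries of these groups did not overlap, in either direction, for 52.9% of all tested genes. Their summed level was 12308 to 13316 TMM-scaled FPKM in recovered, 25076 to 28204 in chilled and 18593 to 20258 in unchilled libraries, and 43 of the 229 listed genes had no count. The direction between chilled and unchilled fruit depends on the scaling, with a median of 0.36 with TMM and -0.14 with library totals. Sharing of reads between copies of these genes was not checked.

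Ribosomal proteins of the bacterial type, which serve plastids and mitochondria, had 9 of 99 tested genes higher and 20 lower after chilling, 19 higher and 25 lower after recovery, and 0 higher and 5 lower in recovered than in unchilled fruit (median -0.21). Of 12 tested subunits of the RNA exosome, which trims ribosomal RNA precursors, 2 rose and 3 fell after chilling, whereas recovery raised 4 and lowered 2. Among 70 tested translation initiation factors, chilling left 14 higher and 7 lower, and recovery 6 higher and 20 lower, with medians of 0.35 and -0.46 under TMM and of -0.15 and 0.05 with library totals.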
